A study of Danio rerio with 17 samples.

Results

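Genes of the matrix proteases and their inhibitors were followed across sorted mural and endothelial cells of zebrafish embryos. The 62 genes, of 30220 in the deposited table, were chosen by symbol: those that begin with mmp, adam or timp and a digit, or with adamts. The rule sets aside 2 MMP genes, which are not analysed here. By class they are 12 secreted and 11 membrane-type MMPs, 15 ADAMs, 5 ADAMTS that cleave the large proteoglycans called hyalectans, 2 ADAMTS that trim procollagens, 7 other ADAMTS, 5 ADAMTS-like genes and 5 TIMPs. The name "proteases and inhibitors" is not exact for all of them, since ADAMTS-like proteins carry no protease domain and the ADAMs 11, 22 and 23 are known in mammals to lack an active site.

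Matrix metalloproteinases (MMPs) are zinc proteases that cut collagens, other matrix proteins and cell surface proteins, and tissue inhibitors of metalloproteinases (TIMPs) occupy their active sites. ADAMs are membrane-bound relatives that shed growth factors and receptors from the cell surface, while ADAMTS enzymes are secreted and act on proteoglycans, procollagens and the microfibrils around vessels. In mammals TIMP2 has a further role, because it bridges MMP14 and the proenzyme of MMP2 at the cell surface and so takes part in MMP2 activation. In growing vessels these enzymes are known for opening the basement membrane and remodelling the matrix that mural cells, the smooth muscle cells and pericytes of the vessel wall, lay down.

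The 17 RNA-seq libraries were made from dissociated embryos sorted by fluorescence (FACS). The Tg(acta2:egfp) line at 4 days post fertilization gave 3 libraries of reporter-positive cells, labelled mural, and 3 of negative cells, labelled non-mural; acta2 encodes smooth muscle actin. The Tg(acta2:mcherry);(foxc1b:egfp) line, also at 4 days, gave 2 positive and 3 negative libraries, and the labels do not say whether positive cells carried both reporters. The Tg(kdrl:mcherry) line at 5 days, with a reporter of the endothelial VEGF receptor gene kdrl, gave 3 libraries labelled endothelial and 3 labelled non-endothelial. For the kdrl line the cells were fixed ahead of the sort, and another kit was used to build the libraries. The labels do not say whether replicates came from separate clutches or sorts, so the p-values measure only the spread between these libraries, which may be technical.

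Libraries held 10474235 to 40868765 reads assigned to genes. The acta2 transcript was at 16196 to 29672 normalized counts in acta2 positive and at 121 to 147 in acta2 negative libraries, and kdrl at 5389 to 19330 in kdrl positive and 232 to 305 in kdrl negative libraries. In the acta2/foxc1b line acta2 was at 37792 and 44413 in positive and 45.7 to 137 in negative libraries. There foxc1b was at 744 and 1977 in positive and 215 to 415 in negative libraries. In the acta2 line foxc1b was at 2199, 905 and 693 in positive and 5294, 3313 and 1655 in negative libraries, which overlapped. A normalized count is a read count that the authors scaled by each library's size factor. All libraries carry the label of vascular smooth muscle tissue, but the smooth muscle markers summed to 2771 to 2968 in acta2 negative libraries against 46459 to 91733 in acta2 positive ones. Of the cell type markers, 10 of 11 mural, 4 of 9 tested pericyte and 3 of 13 fibroblast and tendon genes were higher in acta2 positive cells, and 10 of 10 lens and 8 of 12 neuron and glia genes were lower. In kdrl positive cells 18 of 18 tested endothelial, 8 of 12 leukocyte and 5 of 14 epidermis markers were higher, and 9 of 13 fibroblast and tendon markers were lower. Replicate 2 of the acta2/foxc1b negative libraries stood apart, with epidermis markers that summed to 3278900 and markers of liver, gut and pancreas that summed to 1747900, against at most 26347 and 25246 in the other libraries of that line. In the acta2/foxc1b positive libraries skeletal muscle markers summed to 255800 and 461190, against 13937 to 45904 in the negative ones. In such bulk samples, fewer cells of a type and less RNA per cell cannot be told apart.

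Mural cells of the acta2 line held more RNA of 10 of the 55 members that could be tested and less of 1. The 10 were the inhibitors timp2a and timp2b, the MMPs mmp11a, mmp14b and mmp23ba, the ADAMTS genes adamts3, adamts10 and adamts15a, adamtsl5 and adam19b, and the 1 that fell was adam23a. Calls were made by limma on log2(normalized count + 1), where 1 is the pseudocount, at an adjusted p under 0.05 over all genes tested, and folds are on that scale. Of all 20582 genes tested, 7% were called, 3.26% higher and 3.75% lower, against 18.2% of the members higher and 1.82% lower. The median log2 difference was 0.76 over the members tested and -0.06 over all genes. In 25 members every positive library exceeded every negative one, which 15.1% of all genes did, and in 5 the order was opposite, as in 15.7% of all genes. The 7 members not tested (adamts13, mmp16b, mmp19, mmp21, mmp24, mmp25a and timp4.2) did not reach 10 normalized counts in 3 libraries. Without negative replicate 2 no member passed in this line, and the calls over all genes fell to 0.749% higher and 0.585% lower. Without another single library 3 to 8 members were higher, and adam19b, adamts15a and mmp23ba were each time among them. Calls over all genes then ran from 0.944% to 2.27% higher and from 0.901% to 4.33% lower. The call of mmp11a was lost without any single library, and those of timp2a, mmp14b, adamts10 and adamtsl5 without 5 of the 6 libraries in turn. The call of adam23a was lost without negative replicate 1, 2 or 3 and without positive replicate 1 or 3. The fibroblast and tendon markers summed to 1153100 to 1415900 in acta2 positive and 486250 to 502850 in acta2 negative libraries, and their part in the rise of the members was not tested.

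For the acta2/foxc1b line no member passed the test among 59 tested, while 0.0271% of all 22116 genes did, all of them higher. At an unadjusted p under 0.05 there were 18 members. The share of all genes at that threshold was not counted, so this number is not read as a result. edgeR called 0, while DESeq2 called 8 higher and 1 lower, where 3% and 4.89% of all genes were called. One limma fit over the 11 libraries of both acta2 lines called 8 higher and 0 lower, where 2.58% and 1.81% of all genes were. The median log2 difference was 1.47 over the members and -0.11 over all genes, and in 31 members both positive libraries exceeded every negative one, against 14.8% of all genes. Without negative replicate 2, the library that stands apart, 7 members were called higher (timp2a, mmp15a, mmp23ba, adamts8a, adamts9, adamts15a and adamts17) and adam23a lower. Calls over all genes also rose without it, to 1.55% higher and 2.03% lower.

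Fitted as 1 effect common to both acta2 lines, the sort effect was positive and past the threshold for 14 of 60 members and negative for 2, adam23a and mmp23bb. Among all 23438 genes 8.77% were called, 4.36% higher and 4.41% lower. The 14 were timp2a, timp2b, timp4.1, mmp11a, mmp14b, mmp15a, mmp23ba, adamts3, adamts8a, adamts9, adamts10, adamts15a, adamts17 and adamtsl5. Leaving out acta2/foxc1b positive replicate 1 left 9 higher and 1 lower, leaving out positive replicate 2 left 7 and 1, and leaving out acta2/foxc1b negative replicate 2 gave 18 and 4. The calls over all genes moved too. In the same order they were 2.73% higher and 3.28% lower, then 2.12% and 2.22%, then 7.06% and 8.82%. The calls of timp2a, timp2b, mmp23ba, mmp23bb, adamts3, adamts8a and adamtsl5 held without each of the 11 libraries in turn. The sort effects of the 2 lines were not told apart for any member: 0 of 60 passed the test of the difference, as did 0% of all genes. At an unadjusted p under 0.05 there were 3 members, without a share of all genes beside them. edgeR called 0, and DESeq2 called adamts17, where it called 0.698% of all genes higher and 0.503% lower. These fits share libraries, so they are not independent of each other.

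Endothelial reporter cells gave other calls. In the kdrl line 4 of 62 members were higher (timp4.1, timp4.2, mmp25a and mmp25b) and 3 lower (mmp14a, adamts15a and adamtsl3). These are 6.45% and 4.84% of the members, where 5.96% of all 24903 genes were called, 3.17% higher and 2.79% lower. Under edgeR, and with no filter, 2 members were higher and 2 lower. Of all genes edgeR called 3.1% and 2.94%, and the fit with no filter 2.46% and 2.04%. The counts are not read as a result about the members as a group. The median log2 difference was -0.53 over the members and -0.05 over all genes. Positive and negative libraries did not overlap for 8 members that were higher in positive cells and 13 that were lower, shares of 12.9% and 21% beside 15.3% and 14.2% of all genes, so the higher share was no larger than the background. Libraries with the same replicate number deviated together in this line, and a fit with the number as a block called 8 members higher and 7 lower. Its calls over all genes were also more, 7.08% higher and 6.41% lower. It added timp2b, adam10a, adam8a and mmp30 to the higher ones and adamts3, adamts8a, adam23a and mmp17b to the lower ones. The fibroblast and tendon markers, 9 of 13 of them called lower, summed to 24801 to 88288 in kdrl positive and 83141 to 161940 in kdrl negative libraries, and their part in the falls was not tested.

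**Figure D1:**
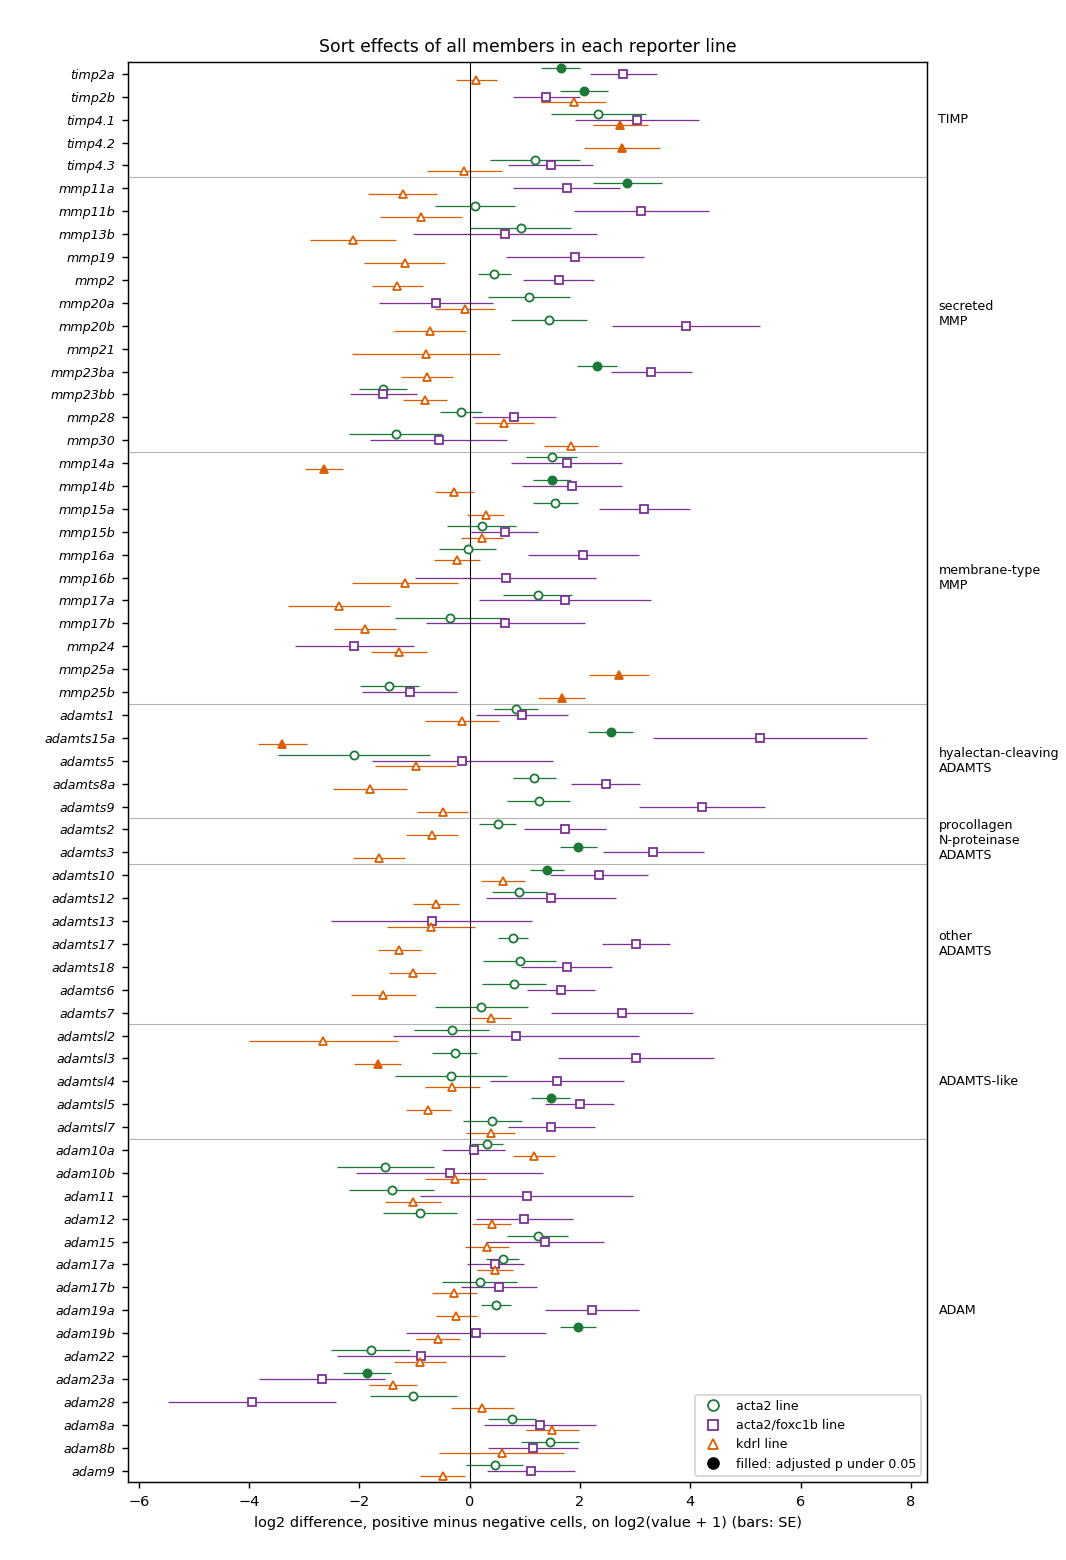
Sort effect of each member in each reporter line, as the log2 difference of positive minus negative cells on log2(normalized count + 1), with bars for the SE; genes are grouped by class and filled symbols passed an adjusted p of 0.05. The acta2 circles of 10 members are filled on the right of 0 and that of adam23a on the left, the kdrl triangles of mmp14a, adamts15a and adamtsl3 are filled on the left, and no acta2/foxc1b square is filled.

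Among the inhibitors, both timp2 genes rose in mural cells, and the timp4 genes that passed the test in endothelial cells were timp4.1 and timp4.2. These were not fully separate patterns. For both acta2 lines together timp4.1 also passed, at low counts and in a call that was lost with the replicate block. In the kdrl line timp2b passed with the replicate block. For timp2a, the acta2 positive libraries held 25919, 17151 and 22214 normalized counts and the negative ones 4498, 9288 and 7596. The acta2/foxc1b positive libraries held 22559 and 24566 and the negative ones 2859, 2838 and 4900.3. Both positive groups lay above their negative groups without overlap. The rise in the acta2 line was 3.15-fold (log2 difference 1.65, SE 0.352, adjusted p = 0.0279), and the common effect of both lines was 2.16 (SE 0.34, adjusted p = 0.00224). The acta2 call was lost with the replicate block (limma, adjusted p = 0.0583). Among kdrl libraries timp2a was at 2862 ± 637 (SD, n = 3) in positive and 2697 ± 972 (SD, n = 3) in negative cells, a difference inside the spread between libraries (log2 difference 0.12, SE 0.375, adjusted p = 0.868).

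For timp2b the acta2 positive libraries stood at 4476, 1562 and 1669 and the negative ones at 598, 643 and 400.2, with replicate 1 far above the other positive libraries. The groups did not overlap, and the difference was 4.23-fold (log2 difference 2.08, SE 0.436, adjusted p = 0.0259). For the acta2/foxc1b line the values were 887 and 2275 in positive and 496, 618 and 518 in negative libraries, again without overlap. The kdrl positive libraries held 1711, 2311 and 736 and the negative ones 469, 754 and 161, so positive replicate 3 fell below negative replicate 2. Within each replicate number the positive library was the higher one. The adjusted p there was 0.0895 without and 0.00394 with the replicate block, for a log2 difference of 1.89.

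The 3 timp4 genes are tandem duplicates that follow each other in the GRCz12tu annotation, so how reads were divided among them is uncertain. In kdrl positive libraries timp4.1 was at 483, 1399 and 672 and in negative ones at 67.1, 198 and 114. No library overlapped, and the rise was 6.65-fold (log2 difference 2.73, SE 0.5, adjusted p = 0.0128). Its adjusted p was 0.0554 without negative replicate 1 and stayed under 0.05 without any other kdrl library. Among acta2 libraries timp4.1 was low, with 18.8, 23.2 and 22 in positive and 7.28, 4.66 and 0.844 in negative libraries, and in the acta2/foxc1b line it held 35.6 and 90.0 against 3.1, 4.88 and 13.6. It passed the test for both acta2 lines together at 2.64 (SE 0.633, adjusted p = 0.0214), but in neither line alone. That call was lost without acta2 negative replicate 3 (limma, adjusted p = 0.0601) and with the replicate block (limma, adjusted p = 0.0522). Without acta2/foxc1b positive replicate 2 the common effect was 2.35. Of the negative libraries only acta2/foxc1b negative replicate 3, at 13.6, reached the filter's minimum value. The filter thus kept timp4.1 there through its positive libraries.

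For timp4.2 the kdrl positive libraries held 39.1, 124 and 125 and the negative ones 25.1, 8.83 and 6.79, without overlap, a rise of 6.81-fold (log2 difference 2.77, SE 0.688, adjusted p = 0.043). That call was kept without positive replicate 1 and lost without any other single kdrl library. It was also lost with no filter and under edgeR. In both acta2/foxc1b positive libraries timp4.2 had 0 reads, which allows up to 2.67 and 3.33 normalized counts, the worth of 3 reads there. In acta2 positive libraries it was at 3.13, 0 and 0, at or under the worth of 3 reads. For timp4.3 the positive libraries of the acta2 line held 42.2, 346 and 339 and the negative ones 113, 87.8 and 42.2. Positive replicate 1 lay with the negative libraries, and timp4.3 passed limma's test over all libraries in no comparison. Without that library it passed in the acta2 line (adjusted p = 0.0464) and for both acta2 lines, and DESeq2 called it for both acta2 lines over all libraries.

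**Figure D2:**
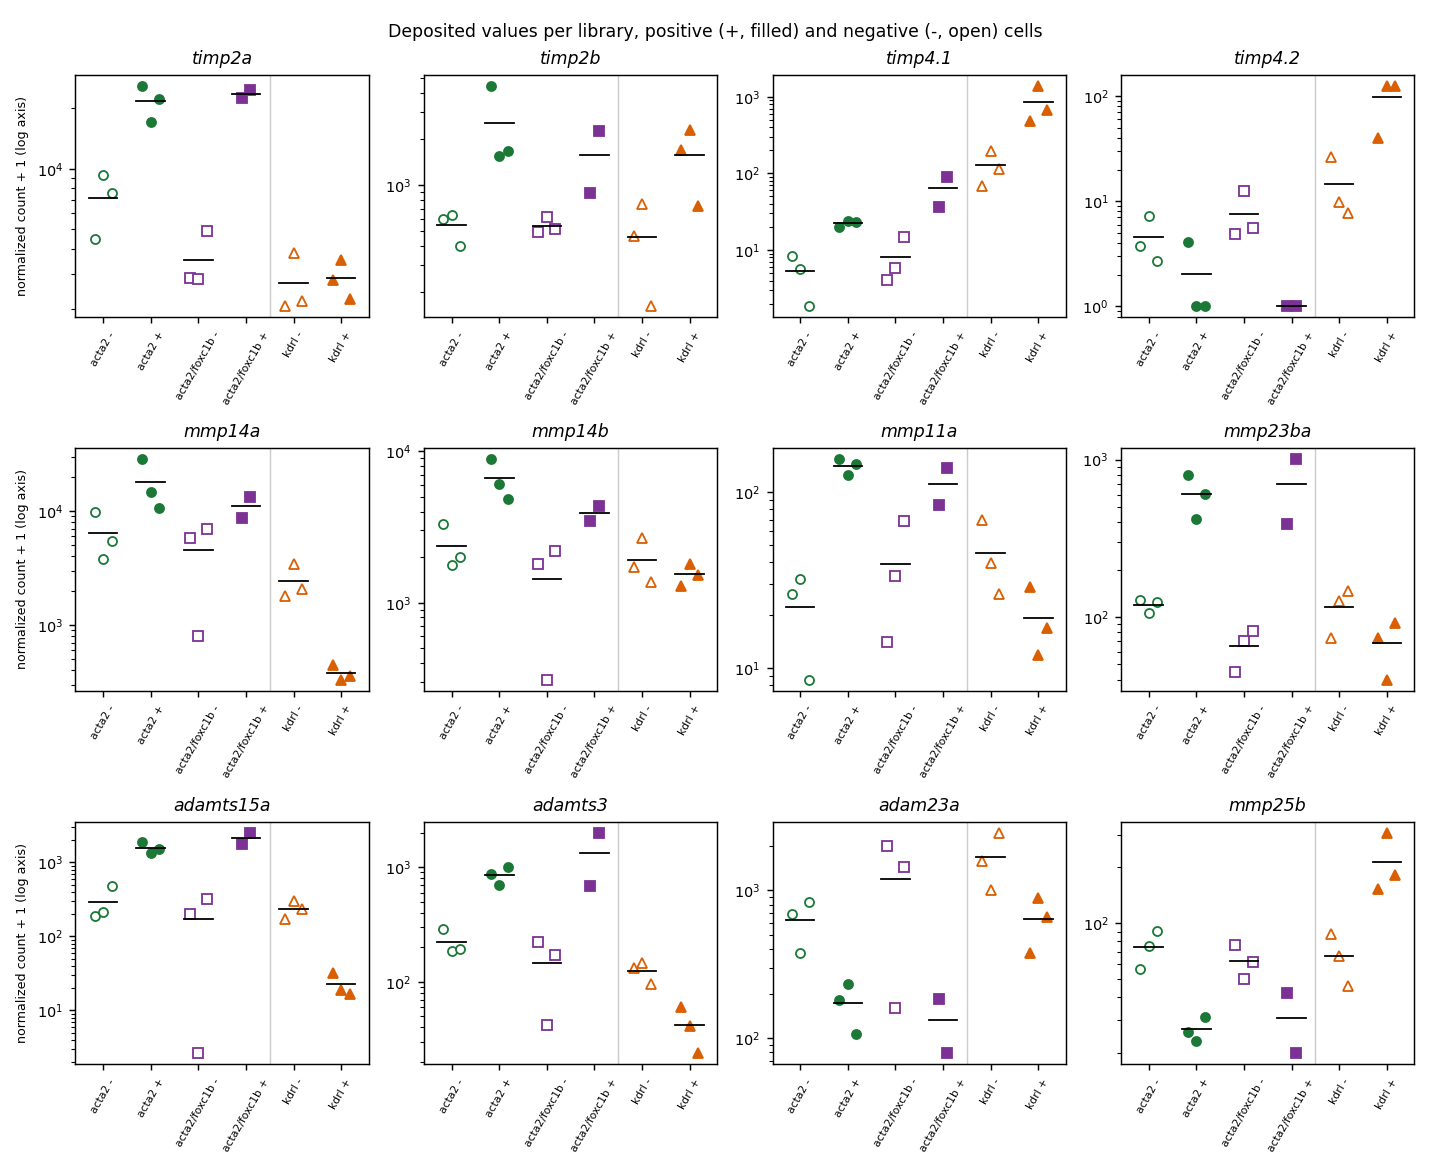
Normalized count + 1 of 12 members in every library on log axes, by line and sort (+ positive, filled; - negative, open), with a bar at the group mean; the kdrl libraries, right of the grey line, were scaled apart from the others. The timp2a positive libraries of both acta2 lines stand above their negative ones, while kdrl positive libraries are highest for timp4.1, timp4.2 and mmp25b and lowest for mmp14a and adamts15a within their line.

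The 2 mmp14 genes encode the membrane-bound collagenase that in mammals activates MMP2. For mmp14b the acta2 positive libraries held 8868, 6105 and 4858 and the negative ones 3310.5, 1772 and 2010.3. The groups were apart, and mmp14b rose 2.81-fold (log2 difference 1.49, SE 0.348, adjusted p = 0.0369). The acta2/foxc1b libraries held 3439 and 4369 in positive and 1789, 309 and 2206 in negative libraries, with negative replicate 2 the lowest by far. The kdrl groups overlapped at 1541 ± 261 (SD, n = 3) in positive and 1924 ± 667 (SD, n = 3) in negative cells (log2 difference -0.28, SE 0.357, adjusted p = 0.658).

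For mmp14a the kdrl positive libraries held 444, 329.9 and 359 and the negative ones 1802, 3452 and 2091. The lowest negative library was thus well above the highest positive one, and mmp14a fell, with a 6.26-fold difference (log2 difference -2.65, SE 0.35, adjusted p = 0.00296). It stayed past the threshold without each kdrl library in turn. In the acta2 line the positive libraries at 28615, 14851 and 10698 lay above the negative ones at 9901, 3816 and 5504, yet the difference missed the threshold (log2 difference 1.48, SE 0.461, adjusted p = 0.0909). With the replicate block limma's adjusted p there was 0.0474, and DESeq2 also called mmp14a in this line. Same-numbered acta2 libraries did not deviate together (r = 0.00968, -0.0225 and -0.0137), and the block also lost calls in this line. The gelatinase gene mmp2 did not pass limma's test over all libraries in any comparison; DESeq2 called it, and limma without kdrl positive replicate 1, for the difference of the acta2 and kdrl effects. It stood at 9451 ± 1396 (SD, n = 3) in acta2 positive and 7021 ± 1716 (SD, n = 3) in negative cells, where the groups overlapped. Positive cells of the acta2/foxc1b line held 5602 ± 1046 (SD, n = 2) and negative cells 1983 ± 891 (SD, n = 3), without overlap. For kdrl cells mmp2 was at 2257, 731 and 1362 in positive and 3499, 4557 and 2163 in negative libraries, which overlapped (log2 difference -1.31, SE 0.465, adjusted p = 0.128).

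Of the other membrane-type MMPs, mmp15a was at 5253, 4171 and 4194 in acta2 positive and 3004, 1006 and 1201 in acta2 negative libraries, a difference that missed the threshold (log2 difference 1.55, SE 0.412, adjusted p = 0.0561). With the replicate block limma's adjusted p there was 0.0463, and DESeq2 also called mmp15a in this line. As for mmp14a, that block pairs libraries that did not deviate together. The acta2/foxc1b libraries held 4934 and 5924 against 797, 208 and 1305. Neither line showed overlap, and the common effect passed the test at 2.27 (SE 0.492, adjusted p = 0.0129). Over the class, log2 differences in the acta2 line ran from -1.46 to 1.55 among the 8 tested members, so membrane-type MMPs did not move as 1 group.

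Secreted MMPs gave 2 calls among 10 tested in the acta2 line, mmp11a and mmp23ba. MMP11, or stromelysin 3, is known in mammals as a product of stromal cells, and MMP23 is anchored in the membrane until it is cleaved and released. For mmp11a the acta2 positive libraries held 153, 124 and 144 and the negative ones 25.5, 31.1 and 7.6, a rise of 7.26-fold (log2 difference 2.86, SE 0.627, adjusted p = 0.03). The groups were far apart, at low counts, but the call was lost without each of the 6 libraries in turn (adjusted p from 0.055 to 0.0944). It was also lost with the replicate block (limma, adjusted p = 0.0547). The acta2/foxc1b positive libraries held 83.7 and 137 and the negative ones 13.2, 32.5 and 67.9, without overlap. For kdrl cells mmp11a was at 18.2 ± 8.72 (SD, n = 3) in positive and 44.3 ± 22.1 (SD, n = 3) in negative cells, and the groups overlapped.

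For mmp23ba the acta2 positive libraries held 794, 421 and 608 and the negative ones 128, 105 and 123. The groups lay far apart, and mmp23ba rose 4.93-fold (log2 difference 2.30, SE 0.366, adjusted p = 0.0103). Values of the acta2/foxc1b line were 388 and 1007 against 44.1, 69.9 and 80.2, and the common effect of both lines, 2.74 (SE 0.381, adjusted p = 0.00115), had the lowest adjusted p of the members in that fit. Its paralogue mmp23bb went the other way. The acta2 positive libraries held 65.7, 90.6 and 50.4 and the negative ones 256, 180.3 and 176, and the acta2/foxc1b libraries 164 and 122 and 304, 579 and 424. Positive libraries lay below negative ones in both, and the common effect of both lines passed as a fall of -1.57 (SE 0.336, adjusted p = 0.0121). The kdrl groups of mmp23bb were apart in the same direction, at 139.6 ± 58.9 (SD, n = 3) in positive and 231 ± 12.9 (SD, n = 3) in negative cells, and missed the threshold (log2 difference -0.81, SE 0.399, adjusted p = 0.248).

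Of the 5 ADAMTS that cleave hyalectans such as versican and aggrecan, adamts15a moved most in this class. The acta2 positive libraries held 1914, 1336 and 1519 and the negative ones 188, 209.9 and 482. They did not overlap, and the rise was 5.87-fold (log2 difference 2.55, SE 0.403, adjusted p = 0.0101). Its acta2/foxc1b values were 1758 and 2528 in positive and 198, 1.63 and 319.6 in negative libraries, where the low value, that of negative replicate 2, is a single read. The log2 difference there was 5.26 (SE 1.94, adjusted p = 0.372) with that library and 3.06 (adjusted p = 0.0263) without it. The kdrl direction was opposite, with 30.8, 17.8 and 15.9 in positive and 169.9, 297 and 231 in negative libraries. The fall there was 10.5-fold (log2 difference -3.40, SE 0.452, adjusted p = 0.00303), and it passed without each kdrl library in turn.

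The gene adamts8a lies next to adamts15a in the GRCz12tu annotation. It was at 2136, 1023 and 1302 in acta2 positive and 618, 919 and 438 in acta2 negative libraries, and at 1106 and 2212 against 315, 381 and 189 in the acta2/foxc1b line. Neither line overlapped, and the common effect was 1.74 (SE 0.379, adjusted p = 0.0131). Positive kdrl libraries held 157, 34.2 and 22.7 and negative ones 204, 247 and 111, where positive replicate 1 lay inside the negative range; the adjusted p was 0.141, and 0.0468 with the replicate block. For adamts9, a versican-cleaving enzyme, acta2/foxc1b positive cells were at 813 ± 241 (SD, n = 2) and negative cells at 64.5 ± 49.5 (SD, n = 3), and the common effect of both acta2 lines was 2.56 (SE 0.734, adjusted p = 0.0461). That call was lost without 8 of the 11 libraries in turn (adjusted p from 0.0596 to 0.158), and with no filter, under edgeR and with the replicate block. The acta2 groups of adamts9 overlapped, at 108, 328 and 236 against 134, 48.2 and 94.6. The gene adamts1, of the same class, passed limma's test in no comparison and was at 6116, 2326 and 2335 in acta2 positive and 2149, 1646 and 1624 in negative libraries, with replicate 1 standing above the others among the positive ones.

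Of the procollagen N-proteinases, which remove the amino-terminal propeptides of fibrillar collagens, adamts3 rose and adamts2 did not pass. ADAMTS3 is also known to activate the lymphatic growth factor VEGFC. For adamts3 the acta2 positive libraries held 866, 702 and 1009 and the negative ones 289, 183 and 192. The groups stood apart by 3.91-fold (log2 difference 1.97, SE 0.334, adjusted p = 0.0128). Its values in the acta2/foxc1b line were 681 and 1999.7 against 221, 40.7 and 169, and in the kdrl line 59.7, 40.3 and 22.7 in positive against 130.3, 145 and 94.2 in negative libraries. The kdrl groups did not overlap, with positive cells lower; the log2 difference of -1.65 had an adjusted p of 0.0713, and 0.0298 with the replicate block. For adamts2 the acta2 groups were at 314 ± 60.5 (SD, n = 3) in positive and 219 ± 28 (SD, n = 3) in negative cells (log2 difference 0.51, SE 0.34, adjusted p = 0.404).

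Among the remaining ADAMTS, adamts10 and adamts17 are relatives whose human genes are linked to the fibrillin microfibrils. For adamts10 the acta2 positive libraries held 2541, 1651 and 1412 and the negative ones 814, 629.6 and 629, a rise of 2.64-fold without overlap (log2 difference 1.40, SE 0.315, adjusted p = 0.0328). For adamts17 the acta2 libraries were at 3356, 3685 and 3742 and 2659, 1763 and 1956, and the acta2/foxc1b libraries at 3194 and 8680.0 and 730.5, 533 and 716. Positive cells were above negative ones in both lines, without overlap. The log2 difference was 0.78 in the acta2 line and 3.01 in the acta2/foxc1b line, neither past the threshold (adjusted p = 0.123 and 0.14), while the common effect was 1.77 (SE 0.422, adjusted p = 0.021). The test of the difference between the lines gave 2.23 (SE 0.615, adjusted p = 0.547).

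Of the ADAMTS-like genes, which encode matrix glycoproteins without protease activity, adamtsl5 rose in mural and adamtsl3 fell in endothelial cells. For adamtsl5 the acta2 positive libraries held 1026, 745 and 918 and the negative ones 429.5, 359 and 214, 2.77-fold apart (log2 difference 1.47, SE 0.353, adjusted p = 0.0405). This call was lost with the replicate block (limma, adjusted p = 0.0616). The acta2/foxc1b groups, 1212 ± 695 (SD, n = 2) in positive and 284 ± 74.5 (SD, n = 3) in negative cells, did not overlap either. For adamtsl3 the kdrl positive libraries held 111, 55.3 and 49.96 and the negative ones 201, 274 and 185. They were apart by 3.18-fold (log2 difference -1.67, SE 0.423, adjusted p = 0.0456), and the call was kept without positive replicate 1 and lost without any other single kdrl library. The adamtsl3 call was also lost with no filter, with quantile normalization and under edgeR. Sorted acta2 cells had adamtsl3 at 125 ± 25.1 (SD, n = 3) in positive and 152 ± 35.8 (SD, n = 3) in negative cells, and these overlapped.

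Among the 15 ADAMs 1 rose and 1 fell in the acta2 line, and their log2 differences there spanned -1.87 to 1.97. ADAM19, or meltrin beta, sheds growth factors such as neuregulins. For adam19b the acta2 positive libraries held 679, 963 and 667 and the negative ones 193, 163 and 227, a rise of 3.92-fold without overlap (log2 difference 1.97, SE 0.327, adjusted p = 0.012). Its acta2/foxc1b values were 349 and 32.2 in positive and 161, 30.9 and 192 in negative libraries. Positive replicate 2 and negative replicate 2 were both low, and the groups overlapped. The kdrl groups overlapped too, at 225 ± 101 (SD, n = 3) in positive and 320.3 ± 66.7 (SD, n = 3) in negative cells.

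ADAM23 is an adhesion protein of neurons. For adam23a the acta2 positive libraries held 181, 232 and 105 and the negative ones 693, 376 and 832, without overlap, and the difference was a fall (log2 difference -1.87, SE 0.441, adjusted p = 0.0387). That call was lost with the replicate block (limma, adjusted p = 0.0771). The acta2/foxc1b libraries held 184 and 77.8 and 2002, 159 and 1443, with negative replicate 2 inside the positive range. Among kdrl libraries they were 377, 887 and 656 and 1588, 1008 and 2465, with an adjusted p of 0.091, and 0.0499 with the replicate block. Neuron and glia markers, 8 of 12 of them called lower in the acta2 line, summed to 2843 to 7576 in acta2 positive and 40121 to 48519 in acta2 negative libraries, and to 5877 in acta2/foxc1b negative replicate 2 against 86603 and 95468 in the other negative ones. Their part in the adam23a result was not tested.

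The general sheddase genes adam10 and adam17, which release Notch receptors and tumour necrosis factor among others in mammals, did not pass in the acta2 lines. Among acta2 libraries adam10a was at 2459 ± 324 (SD, n = 3) in positive and 2021 ± 557 (SD, n = 3) in negative cells, adam10b at 59.5 ± 35.9 (SD, n = 3) and 229.7 ± 223 (SD, n = 3). For adam17a the groups were at 625 ± 85.1 (SD, n = 3) and 411 ± 40.3 (SD, n = 3), and for adam17b at 122 ± 78.8 (SD, n = 3) and 93.4 ± 46 (SD, n = 3). Log2 differences there were 0.31, -1.54, 0.60 and 0.18 in the same order, and of the 4 only the adam17a groups did not overlap. Of these, adam10a stood at 3863, 7144 and 3674 in kdrl positive and 1628, 2283 and 2404 in kdrl negative libraries. These did not overlap, and the log2 difference of 1.17 had an adjusted p of 0.106, and 0.037 with the replicate block.

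In the kdrl line mmp25a and mmp25b rose. Their human counterpart MMP25, or leukolysin, is a lipid-anchored enzyme of neutrophils. For mmp25a the positive libraries held 92, 259.6 and 202 and the negative ones 45, 19.4 and 17.8, a rise of 6.53-fold (log2 difference 2.71, SE 0.548, adjusted p = 0.0201). For mmp25b they held 151, 307 and 182 and 86.9, 65.3 and 45, a rise of 3.17-fold (log2 difference 1.67, SE 0.431, adjusted p = 0.0499). Neither gene's groups overlapped. The mmp25b call was lost without any single kdrl library, with no filter, with TMM log2 CPM and under edgeR. That of mmp25a was lost without negative replicate 2 or positive replicate 2.

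In the acta2 line mmp25b was lower in every positive than in every negative library, at 25, 22.1 and 30.4 against 55.5, 74.6 and 90.3 (log2 difference -1.46, SE 0.532, adjusted p = 0.134), and mmp25a had 0 to 39.1 normalized counts in the libraries of both acta2 lines. Chosen after their values were seen, like mmp17b above, adam8a and mmp30 passed in the kdrl line with the replicate block. ADAM8 is known in mammals from leukocytes. The kdrl positive libraries held 734, 762 and 499.6 of adam8a and the negative ones 355, 332 and 104 (adjusted p = 0.0971, blocked 0.0211). For mmp30 they held 3868, 1078 and 2550.2 and 408, 930.5 and 615 (adjusted p = 0.0575, blocked 0.0473). Neither overlapped. The 12 leukocyte markers, 8 of which were called higher, summed to 20839 to 49502 in kdrl positive and 1568 to 4732 in kdrl negative libraries. Among them ptprc, the pan-leukocyte surface phosphatase CD45, was at 2219, 1461 and 3795 in kdrl positive and 120, 305 and 474 in kdrl negative libraries. Epidermis markers, 5 of 14 called higher, summed to 439700, 56557 and 391260 in kdrl positive and 18947, 38005 and 64735 in kdrl negative libraries, and mmp30 was likewise lowest in positive replicate 2. In the acta2/foxc1b negative libraries mmp30 was at 57.3, 951 and 105. It was highest in replicate 2, as were the epidermis markers and those of liver, gut and pancreas. The liver, gut and pancreas markers summed to 29456, 12285 and 18446 in kdrl positive libraries, also lowest in replicate 2. Among kdrl negative libraries mmp30 was highest in replicate 2, while both marker sums were highest in replicate 3. Within the kdrl positive libraries the leukocyte sum was lowest in replicate 2, at 20839. There mmp25a, mmp25b and adam8a were highest (259.6, 307 and 762) and mmp30 was lowest. The part of leukocyte, epidermis and liver, gut and pancreas transcripts in the values of mmp25a, mmp25b, adam8a and mmp30 was not tested.

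**Figure D3:**
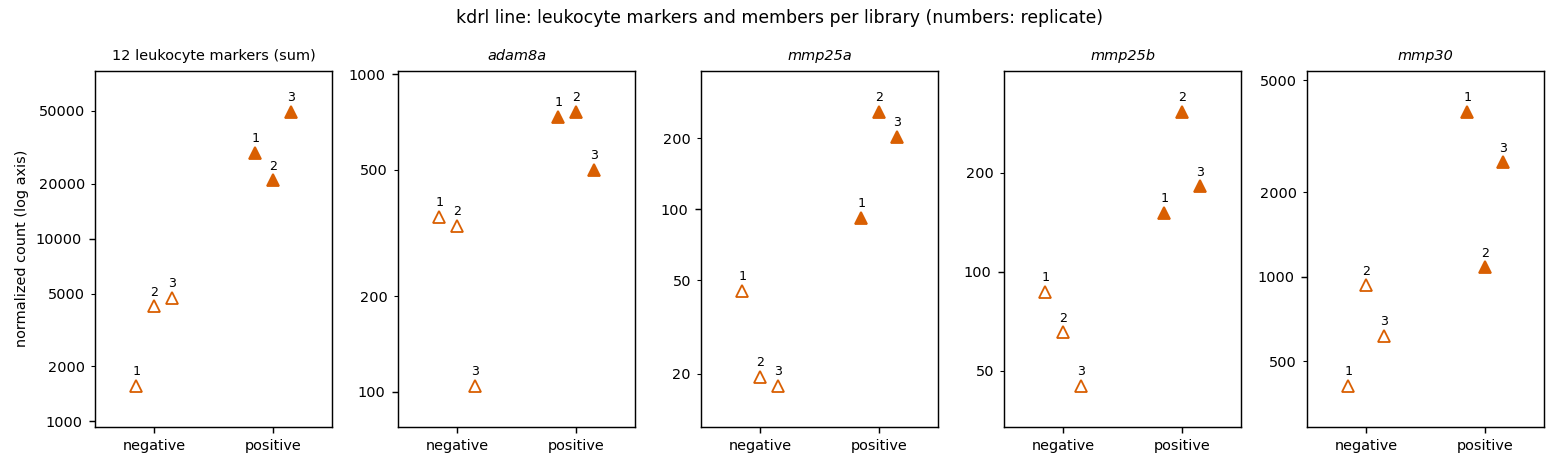
Summed normalized counts of the 12 leukocyte markers, and normalized counts of adam8a, mmp25a, mmp25b and mmp30, in each kdrl library on log axes (open, negative; filled, positive; numbers give the replicate). The marker sum is 20839 to 49502 in positive and 1568 to 4732 in negative libraries, and in each of the 4 genes every positive library lies above every negative one.

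The mural and endothelial sort effects were compared directly, as the acta2 effect minus the kdrl effect. Of 62 members 10 were more positive in the acta2 line and 1, mmp25b, less so, where 6.11% of all 25490 genes were called, 2.8% higher and 3.31% lower. The largest difference was that of adamts15a at 5.95 (SE 0.611, adjusted p = 0.000114), and those of mmp14a and mmp11a were 4.13 (SE 0.596, adjusted p = 0.000842) and 4.08 (SE 0.921, adjusted p = 0.0162). The others more positive in the acta2 line were adamts3, mmp23ba, adamts8a, adam19b, adamtsl5, adamts17 and mmp14b, with log2 differences from 1.77 to 3.61. Leaving out each of the 12 libraries in turn lost the call of mmp14b 10 times, adamts8a 9 times, adamtsl5 4 times, adamts17 in 2 cases and mmp11a in 1. The difference for mmp25b was -3.12 (SE 0.69, adjusted p = 0.0142). For timp2b, whose log2 difference was positive in both lines, it was 0.19 (SE 0.795, adjusted p = 0.919), and for timp4.1 -0.40 (SE 0.925, adjusted p = 0.844). Both inhibitors thus gave no difference between the lines beyond the spread, with SEs that leave room for one. The lines differ in stage, fixation, library kit and scaling, and these cannot be told apart from the cell type. Each effect is also relative to the negative cells of its own line. Lens markers summed to 48711 to 62295 in acta2 negative and 640 to 2022 in kdrl negative libraries. Neuron and glia markers summed to 40121 to 48519 and 56973 to 156710, in sets that were scaled apart. The part of the negative cells in the differences was not tested.

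**Figure D4:**
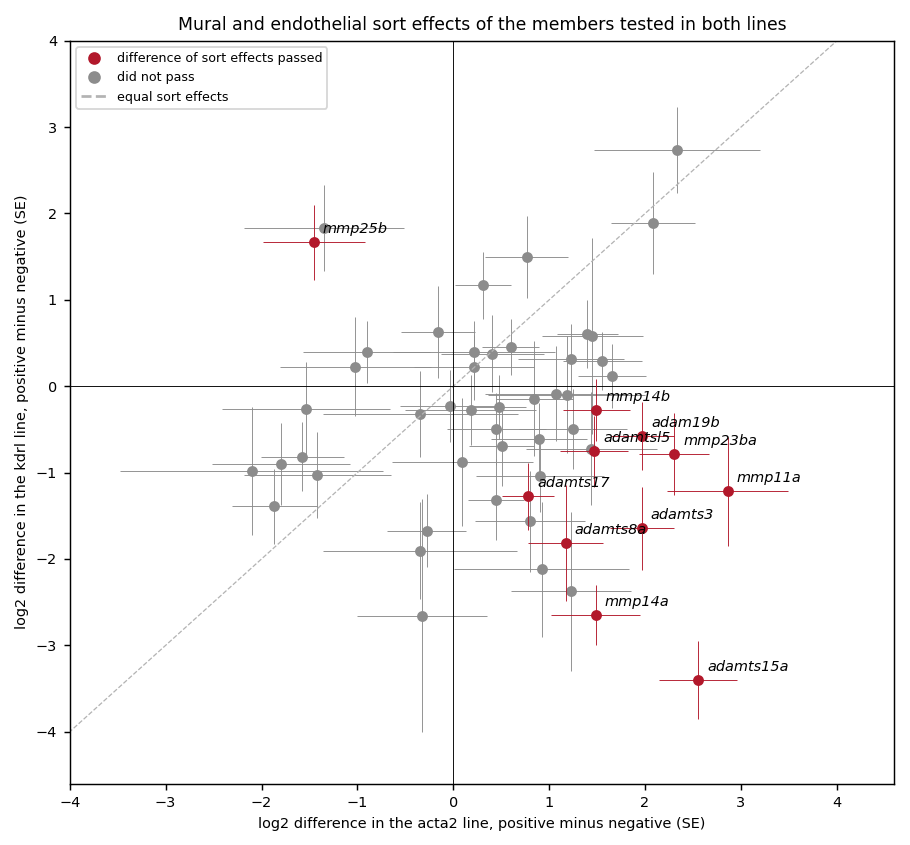
Sort effects of the 55 members tested in both the acta2 (x) and the kdrl line (y), as log2 differences of positive minus negative cells with SE bars; red points passed the test of the difference between the effects. Points right of 0 and below it, such as adamts15a, mmp14a and adamts3, had positive acta2 and negative kdrl differences, and mmp25b lies on the opposite side.

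The authors' deposited table of their own tests has an adjusted p for 59 members of the acta2 line, with 5 called higher and 2 lower, beside 5.65% of all genes called there. For the acta2/foxc1b line the authors' deposited table calls 15 members higher and 2 lower among 60, beside 11.5% of all genes. For the kdrl line the authors' deposited table calls 7 higher and 6 lower among 62, beside 13.3% of all genes. These shares of all genes count both directions. The authors' deposited table calls timp2a higher in the acta2 and acta2/foxc1b lines, with log2 fold changes of 1.46 and 2.50, and mmp23ba with 2.05 and 3.06. Its other higher members in the acta2 line are timp2b, mmp11a and adamts3, and its 2 lower ones are mmp23bb and mmp24. It does not call adam19b, adamts15a, adamts10, mmp14b, adamtsl5 or adam23a there, all called by limma (adjusted p of the authors' test from 0.0633 to 0.184). In the acta2/foxc1b line, where limma's main test called no member, the authors' table also calls mmp2 higher (1.27, adjusted p of the authors' test 0.0462). Its others higher there are timp4.1, mmp11b, mmp15a, mmp20b, adam19a, adamtsl5, adamts3, adamts8a, adamts9, adamts10, adamts15a and adamts17. Its lower ones there are adam23a and mmp23bb.

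Beyond these families, a list of other extracellular proteases, their activators and inhibitors was followed, 78 of 87 listed genes being measured. Sorted acta2 cells had 9 of its 76 tested genes higher and 2 lower, beside 3.26% and 3.75% of all genes. The 4 with the lowest adjusted p were pcolce2b (log2 difference 2.68) and tfpia (2.2), a procollagen proteinase enhancer and an inhibitor of the coagulation pathway, htra1a (2.08), a secreted serine protease, and prss35 (1.36). None of its 78 genes tested in the acta2/foxc1b line was called. For both acta2 lines together 12 were higher and 4 lower, beside 4.36% and 4.41% of all genes, led by pcolce2b (3.36), tfpia (2.16), hpse2 (2.22) and pcolcea (1.99). Among kdrl cells 6 of 78 were higher and 8 lower, beside 3.17% and 2.79% of all genes, led by falls of fap (-3.35), pcolcea (-2.79), prss35 (-1.94) and htra1a (-2.81); fap is also on the fibroblast list. The list's median log2 difference was 0.53 for acta2, 0.37 for acta2/foxc1b and 0.25 for kdrl, beside -0.06, -0.11 and -0.05 over all genes.

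The 32 members that the naming rule does not name passed limma's main test, over all libraries without a replicate block, in none of the 6 comparisons. Other limma settings called some of them. For both acta2 lines mmp20b passed with a pseudocount of 5 and with quantile normalization, and adam8b with the latter. Without 1 library, adam19a, adam22, adamts6, mmp13b, mmp17a, mmp17b, mmp20b, mmp24 and mmp30 each passed in at least 1 fit. With the block, adam8a, mmp30 and mmp17b did in the kdrl line. The 32 are 9 ADAMs, 8 secreted and 6 membrane-type MMPs and 9 ADAMTS or ADAMTS-like genes. For kdrl, all 5 ADAMTS that cleave hyalectans had negative log2 differences, from -3.40 to -0.14, and 2 of 12 secreted MMPs had positive ones, in a range of -2.12 to 1.83, the last being mmp30. In the acta2 line 39 of 55 members tested had positive log2 differences, among them 4 of 4 TIMPs and 6 of 6 other ADAMTS. Of all genes tested, 47.6% there and 47.9% in the kdrl line had positive ones. These counts include genes whose groups overlap. The classes hold 5 TIMPs and 7 other ADAMTS. In the acta2 line the filter kept timp4.1 through its positive libraries alone (18.8, 23.2 and 22) and left out timp4.2. The TIMP count is therefore not read as a result.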

How the data were processed

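The libraries are oligo dT primed RNA-seq of sorted zebrafish cells, per the labels. TRIzol served for extraction in all lines. REPLI-g amplification with TruSeq adapters served both acta2 lines and the TotalScript kit the fixed kdrl cells. The submitters' processing notes name bcl2fastq 2.14, CASAVA 1.8.2, featureCounts 1.5.2, DESeq2 1.20.0 and build GRCz11; aligner and annotation: not given in the sources used here.

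The deposited signal values are read counts after the authors' scaling by library size factors, with the acta2 and acta2/foxc1b libraries scaled together and the kdrl libraries apart. In every library 100% of values were whole reads within a tolerance of 0.1 read. Count tests were therefore run on the recovered reads as alternatives. With edgeR 10 members were higher and 1 lower in the acta2 line. It called 0 and 0 in the acta2/foxc1b line and 2 and 2 in the kdrl line. Of all genes it called 2.86% higher and 2.97% lower in the acta2 line. Those shares were 0% and 0% in the acta2/foxc1b line and 3.1% and 2.94% in the kdrl line. Depth was 10474235 to 40868765 reads, and a floor of 3 reads covers counting error only. The authors also deposited log2 fold changes, a Wald score and p-values per line, with their standard errors and other columns; whether the fold changes were shrunken is not stated.

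Since the values are not raw counts, genes that reached 10 in a number of libraries equal to the smallest group were tested by limma-trend (limma 3.58.1, R 4.3.3) on log2(value + 1), two-sided, with Benjamini-Hochberg adjusted p under 0.05 over all genes tested. Each line was fitted alone; both acta2 lines together, and the differences of sort effects, were fitted over the libraries concerned. edgeR 4.0.16 and DESeq2 1.42.0 are alternatives. The fits were also run on simulated counts with the same dispersion for all genes and no library standing apart. Those settings differ from these data, so nothing is concluded from that run.

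Same-numbered kdrl libraries deviated together across genes (r = 0.475, 0.128 and 0.422), so that line was also fitted with the block. Blocked adjusted p-values are printed above only where the block gained a call, apart from mmp17b (limma, adjusted p = 0.0261). The block kept the 7 kdrl calls of the main fit. With it mmp2, mmp23bb, mmp14b and timp2a still missed the threshold there (limma, adjusted p = 0.0693, 0.143, 0.486 and 0.775). The r values were 0.00968, -0.0225 and -0.0137 in the acta2 line and 0.144 and 0.0559 in the acta2/foxc1b line. Both lines were left unpaired. In the acta2/foxc1b line the deviations of the 2 positive libraries mirror each other, so its r values cannot show whether libraries are paired.

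Members and gene lists were chosen with earlier results of these data known. Named are the members called in any comparison, all timp genes, mmp2, mmp14a, mmp14b, the adam10 and adam17 genes, and the member with the highest mean value per class and line. Ensembl IDs matched for 20 of 62 members. Levels are not compared between genes, as transcript lengths are not used here.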

Additional observations from a re-analysis of the deposited data

Results flagged for a closer look

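The acta2 sort effect and the kdrl sort effect of 11 members differed in limma's test of the difference itself. On the log2 scale, acta2 minus kdrl, the values were 5.95 for adamts15a, 4.13 for mmp14a, 4.08 for mmp11a, 3.61 for adamts3, 3.08 for mmp23ba, 2.98 for adamts8a, 2.55 for adam19b, 2.22 for adamtsl5, 2.05 for adamts17 and 1.77 for mmp14b, and -3.12 for mmp25b. Adjusted p-values ran from 0.000114 for adamts15a to 0.0484 for mmp14b. The adamts15a difference rests on effects of opposite sign that each passed in their own line, 2.55 and -3.40, with 3 of 3 acta2 positive libraries above and 3 of 3 kdrl positive libraries below every negative one. The difference for mmp25b passed without each library in turn, while its kdrl effect did not and its acta2 effect missed the threshold. The difference for mmp14b was lost without 10 of the 12 libraries in turn, and with no filter. That for adamts8a was lost without 9 of the 12, and with no filter, quantile normalization and edgeR. Stage, fixation, kit, scaling and the negative cells differ with the line and cannot be told apart from the cell type.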

How the results depend on the processing

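Leaving out 1 library at a time gave 0 to 8 members higher and 0 to 1 lower in the acta2 line, 0 to 7 and 0 to 1 in the acta2/foxc1b line, 1 to 3 and 2 to 5 in the kdrl line, and 7 to 18 and 1 to 4 for both acta2 lines. Shares of all genes ran from 0.749% to 2.27% higher and 0.585% to 4.33% lower in the acta2 line. In the acta2/foxc1b line they were at most 1.55% and 2.03%. They were 1.29% to 3.04% and 0.833% to 2.82% in the kdrl line, and 2.12% to 7.06% and 2.22% to 8.82% for both acta2 lines. For the difference of acta2 minus kdrl the range was 6 to 12 higher and 1 to 2 lower, and for acta2/foxc1b minus acta2 0 and 0. Over all genes these shares were 1.7% to 2.9% and 1.73% to 4.18%, and at most 0.211% and 0.0216%. With the replicate block the acta2 line had 9 and 0, the acta2/foxc1b line 1 (adamts15a) and 0, the kdrl line 8 and 7, both acta2 lines 8 and 1. The block left the 2 differences at 0 and 0 and at 10 and 1. In the acta2 line 7 calls were shared with the main fit. The block lost timp2a, mmp11a, adamtsl5 and adam23a there and added mmp14a and mmp15a. For both acta2 lines it called 2.13% of all genes higher and 2.41% lower, and for acta2 minus kdrl 3.46% and 4.66%. The block moved all calls in the acta2 line from 670 higher and 771 lower to 484 and 562, and in the acta2/foxc1b line from 6 and 0 to 97 and 183. In the acta2 line no library correlated best with its own number. DESeq2 gave 13 and 3 in the acta2 line, 8 and 1 in the acta2/foxc1b line, 7 and 8 in the kdrl line, 17 and 4 for both acta2 lines, and 15 and 3 for acta2 minus kdrl; for acta2/foxc1b minus acta2 it gave 1 higher. Over all genes DESeq2 called 6.84% higher and 8.14% lower in the acta2 line, 3% and 4.89% in the acta2/foxc1b line, 7.61% and 7.63% in the kdrl line, 7.9% and 9.44% for both acta2 lines, and 6.72% and 7.46% for acta2 minus kdrl. One fit over the 11 libraries of both acta2 lines left 1 higher (mmp23ba) and 0 lower in the acta2 line and 8 higher in the acta2/foxc1b line. Of all genes that fit called 0.578% higher and 0.753% lower in the acta2 line. In the kdrl line no filter, and likewise edgeR, gave 2 higher, where 2.46% and 3.1% of all genes were. A pseudocount of 5, quantile normalization and TMM log2 CPM each gave 2 lower for acta2 minus kdrl. The shares of all genes lower there were 3.61%, 3.3% and 3.39%. The causes were not tested. Single-gene values were followed for the 30 named members only, 2760 of them under alternatives. Of these, 2455 kept their direction and side of the threshold, 163 lost and 67 gained a call. Another 75, called in neither setting, changed sign, and no called value did. Only a value called in the main fit could lose a call, so the 163 are not a share of the 2760. In the acta2/foxc1b line and for acta2/foxc1b minus acta2 the main fit called no member. Quantile normalization moved the median of all genes from -0.06 to 0.07 in the acta2 line, from -0.11 to 0.04 in the acta2/foxc1b line and from -0.10 to 0.06 for both. Depth limits mmp11a, mmp25a, timp4.1 and timp4.2, which had few reads in several groups.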

Other observations

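A further 16 genes of these families appear in the table under locus names only, with descriptions that the deposited table itself gives, and were chosen after the files were seen. LOC100001991, described as ADAMTS 8, rose in the acta2 line, with 267, 165 and 277 normalized counts in positive and 24.6, 59.9 and 45.6 in negative libraries (limma, log2 difference 2.47, SE 0.501, adjusted p = 0.0227). Its common effect in both acta2 lines was 3.19 (SE 0.604, adjusted p = 0.00622), and the groups did not overlap in either line.

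LOC110440212, described as ADAMTS 2-like, also rose in the acta2 line, at 219, 206 and 543 against 21.8, 10.1 and 26.2 normalized counts (limma, log2 difference 3.94, SE 0.593, adjusted p = 0.00858). In the acta2/foxc1b line its positive libraries held 49 and 7.78 and the negative ones 34, 27.6 and 239, so the groups overlapped; the difference between the lines was -5.51 (SE 1.41, adjusted p = 0.442). Another ADAMTS 2-like gene, LOC101883894, fell in the kdrl line, at 35.2, 18.4 and 15.9 against 81.5, 86.5 and 127 normalized counts (limma, log2 difference -2.09, SE 0.501, adjusted p = 0.0376). A metalloproteinase inhibitor 3-like gene, LOC101885062, passed for both acta2 lines together (limma, log2 difference 1.90, SE 0.543, adjusted p = 0.0457) and in neither alone. In limma's test of acta2 minus kdrl, LOC110440212 passed at 5.64 (SE 0.976, adjusted p = 0.00322). LOC101883894 passed there at 3.40 (SE 0.618, adjusted p = 0.00442) and LOC100001991 at 3.48 (SE 0.766, adjusted p = 0.014). In that test 2.8% of all genes were called higher.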
